A study of Mus musculus with 12 samples.

Results

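The histidine triad nucleotide-binding (HINT) genes of the mouse, Hint1, Hint2 and Hint3, were followed through the meiotic maturation of oocytes with and without the RNA demethylase ALKBH5. These 3 of the 56691 genes in the count table were picked by symbol, and the family was taken up because Hint1 stood far higher in knockout (KO) than in wild-type (WT) oocytes at metaphase II (MII). For Hint1, every value that rests on MII libraries is therefore a description and carries no test. Hint2 and Hint3 were tested at all stages, and Hint1 wherever MII libraries were not used.

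The 12 libraries came from 2 genotypes and 3 stages, with 2 libraries in each of the 6 groups. WT and Alkbh5-/- oocytes were of the C57BL/6 background, and the knockout, made by Cas9 removal of the exon with the start codon, was constitutive, so the somatic cells of the ovary lacked ALKBH5 too. Oocytes of PMSG-primed females about 3 weeks of age were collected at the germinal vesicle (GV) stage of the first arrest and cultured to germinal vesicle breakdown (GVBD), the sign of meiotic resumption, or to MII, the second arrest. Each library was a pool of oocytes freed of the zona pellucida, with a set of synthetic RNAs (ERCC spike-in) added to the tube. Stages were set by time in culture. Most KO oocytes did not pass GVBD in culture, so a stage difference between the genotypes and an effect of the genotype at one stage cannot be told apart in the KO GVBD and KO MII libraries.

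HINT proteins form a branch of the histidine triad superfamily, small enzymes that carry a run of alternating histidines in the active site and cleave nucleotide phosphoramidates, releasing nucleoside monophosphates. HINT1 resides in cytoplasm and nucleus and has also been studied as a binding partner of the lysyl-tRNA synthetase and of the transcription factors MITF and USF2. HINT2 is mitochondrial, and HINT3 is a more distant and less studied relative. In growing mouse oocytes transcription is active and RNA is stored, whereas during maturation transcription is silent and much of the stored RNA is removed.

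The stretch that gives the family its name is shown first, because it is the feature that the 3 members share. Each sequence is the coding strand over 7 codons, read from GENCODE transcripts on GRCm38, with the histidine codons in capitals.
Hint1: CACattCACctcCATgtcctt
Hint2: CACctgCACattCACgtactt
Hint3: CATctgCACcttCATgtgata
The Hint1 stretch lies at chr11:54870300-54870320 on the plus strand, in the coding part of exon 3 of 3, from codon 110 of 126. The Hint2 stretch lies at chr4:43654353-43654373 on the minus strand, in exon 5 of 5, from codon 147 of 163. That of Hint3 lies at chr10:30610386-30610406 on the minus strand, in exon 4 of 5, from codon 126 of 165. Over these 21 bases Hint1 differed from Hint2 at 6 and from Hint3 at 7, and Hint2 differed from Hint3 at 6. The longest run of identical bases anywhere in a pair of the mRNAs was 11, for Hint1 with Hint2 and for Hint1 with Hint3.

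All 3 are protein-coding genes. The exon numbers and the main mRNA of each are those of a transcript that the annotation marks as principal. Which transcripts the oocytes held was not tested. Hint1 (ENSMUSG00000020267, chr11:54866383-54870501, plus strand) has 3 exons and a main mRNA of 636 bases. Hint2 (ENSMUSG00000028470, chr4:43654227-43656466, minus strand) has 5 exons and a main mRNA of 610 bases. Hint3 (ENSMUSG00000019791, chr10:30608141-30629632, minus strand) also has 5 exons, with a main mRNA of 875 bases, and overlaps Ncoa7 on the same strand, so reads in the shared stretch are of uncertain origin. No gene overlaps Hint1 or Hint2. A search for near copies (at least 80% identity over at least 100 bases) found 1 for Hint1, Gm43655, which held 15 counts over all 12 libraries against 286569 for Hint1. The 1 near copy of Hint3, Gm49088, held 0.

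Short sequence words that are often looked at in m6A and maternal RNA studies were counted in the main mRNAs, on the mRNA strand. GGACT, the commonest form of the m6A context, was in none of the 3 mRNAs, whereas 48.1%, 43.4% and 61.6% of mRNAs within 10% of the length of the Hint1, Hint2 and Hint3 mRNAs held it. TTTTAT, a cytoplasmic polyadenylation element, was in none of the 3′ untranslated regions, against 11.8%, 7.38% and 18.9% of regions of like length. TTTTAAT was in none of them either, against 4.26%, 2.04% and 4.8%. ATTTA stood once in Hint1 and at 2 places in Hint3, and was absent from Hint2, against 19.6%, 15.8% and 32.3% of regions like Hint1, Hint2 and Hint3. The polyadenylation signal AATAAA stood once in Hint1 and once in Hint2, and was not found in the annotated 3′ end of Hint3. Of regions of like length, 66.3%, 48.3% and 66.4% held it. These are matches of letters in the annotated main mRNAs only. For Hint3 that mRNA has 875 bases, beside 5519 bases of all its annotated exons, so most of its exon sequence was not searched. Other forms of the m6A context were not counted.

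Libraries held 28557742 to 40247810 counts, of which 221927 to 838409 fell on the spike-in, and 19837 to 24436 genes had at least 1 count. The targeted gene followed the labels, with 54 to 143 Alkbh5 counts in KO and 5355 to 10181 in WT libraries. The 2 KO MII libraries were the least alike of any group (Pearson r = 0.942 across 13273 genes, against 0.947 to 0.972 in the other groups), and the members' fold changes that rest on them are given with and without each. All 10 oocyte markers were detected in every group, at summed levels of 23500 to 40500 CPM (counts scaled to the same total in every library). The 12 cumulus and granulosa markers summed to 40.3 to 55.7 CPM in WT and 50.2 to 87.5 in KO libraries, led by Cyp19a1. Fshr, the FSH receptor, was called higher in KO at GVBD (log2 fold change 3.38 ± 0.69, adjusted p = 0.00897, edgeR), where 2.54% of all genes were called. It was the 1 call of that list between the genotypes at a single stage. In the MII libraries Cyp19a1 held 1267 to 2225 counts, Nr5a2 292 to 428, Kitl 73 to 263 and Fshr 39 to 173. Amh and Foxl2 were at 0 there, and held at most 4 and 5 counts in any library. Blood markers, mostly globin, ranged from 1.23 to 4150 CPM. At GV the WT libraries themselves differed, at 13.1 and 4150 CPM, and the KO libraries held 2260 and 3990. They summed to 2180 to 2360 CPM in WT GVBD and to 3.84 to 7.31 in KO GVBD. Between the genotypes edgeR called 0 of the 6 at GV and all 6 lower in KO at GVBD, where 2.54% of all genes were called. At MII it called 3 of the 4 tested higher in KO (0.803% of all genes were called), and DESeq2 called 0 of them.

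Hint1, the cytoplasmic and nuclear member, was among the most abundant transcripts of the GV oocyte. It was far lower in WT MII than in any other group. The counts of its WT libraries were 24837 and 20380 (GV), 25552 and 31437 (GVBD) and 964 and 1381 (MII). Those of its KO libraries were 25459 and 36383 (GV), 40520 and 36358 (GVBD) and 30525 and 12773 (MII). Both WT MII libraries thus stood far below all 10 others.

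Scaled to 100000 spike-in counts, a scale on which a higher value can mean more RNA per oocyte or more oocytes in a tube, the WT values of Hint1 were 7293 and 7113 (GV), 8480 and 6890 (GVBD) and 190 and 165 (MII). The KO values were 11472 and 11488 (GV), 16490 and 9913 (GVBD) and 7561 and 2264 (MII). Ordered by their means, the groups ran from KO GVBD (13202 ± 4651, SD, n = 2) through KO GV (11480 ± 11.1), WT GVBD (7685 ± 1125), WT GV (7203 ± 128) and KO MII (4913 ± 3745) down to WT MII (178 ± 18.1). The replicates of KO GVBD and KO GV overlapped, as did those of WT GVBD and WT GV, and those of WT GV and KO MII. The gaps between KO GV and WT GVBD and between KO MII and WT MII were free of overlap.

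**Figure D1:**
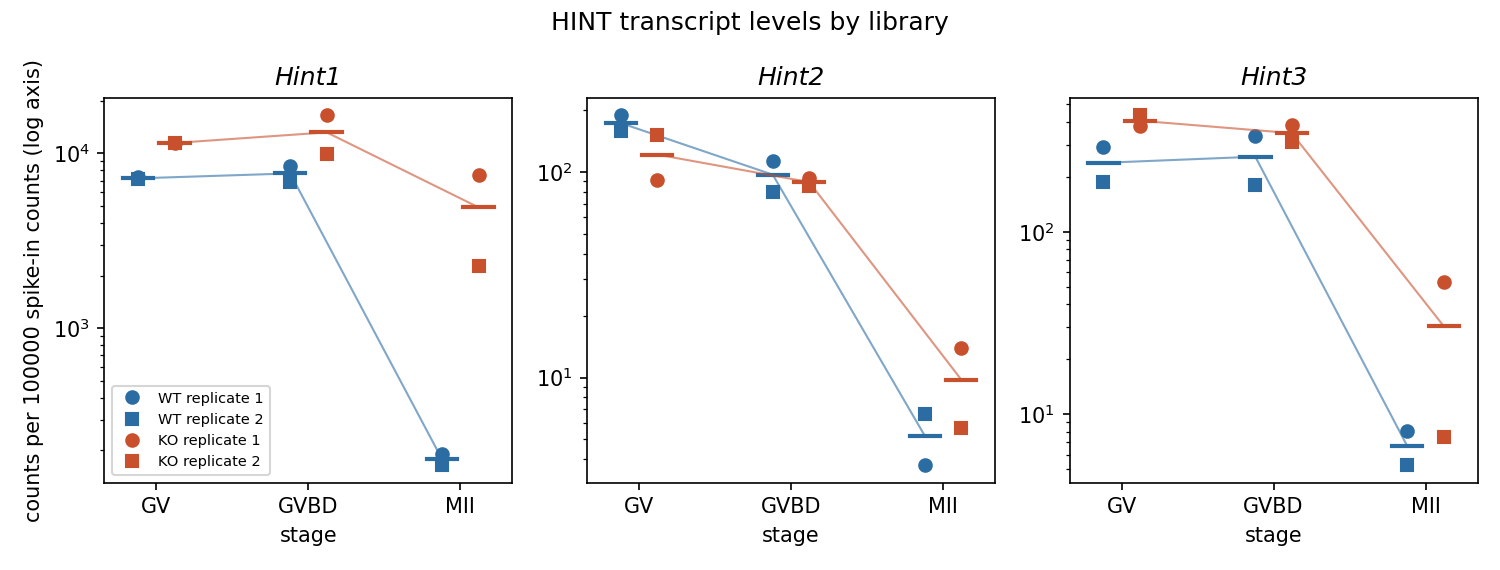
Level of Hint1, Hint2 and Hint3 in each of the 12 libraries, in counts per 100000 spike-in counts on a log axis (x, stage; blue, WT; red, KO; circles and squares, replicates 1 and 2; bars and lines, group means). The WT MII libraries had Hint1 values of 190 and 165 and the KO MII libraries 7561 and 2264, whereas Hint2 and Hint3 were low in both genotypes at MII.

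Per length of exon, Hint1 held rank 117 and 110 among all genes in the WT GV libraries, 96 and 76 after GVBD, and 1582 and 1227 once at MII. In KO libraries its ranks were 80 and 70 (GV), 44 and 66 (GVBD) and 74 and 168 (MII). By rank the KO MII libraries thus lay near the GV and GVBD libraries of both genotypes and far from WT MII.

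Hint2, the mitochondrial member, was a low-abundance transcript throughout. Its WT counts were 640 and 451 (GV), 342 and 366 (GVBD) and 19 and 56 (MII). Its KO counts were 202 and 480 (GV), 229 and 312 (GVBD) and 56 and 32 (MII). The MII libraries of both genotypes were the 4 lowest, and their counts overlapped.

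On the spike-in scale the group means of Hint2 ran from WT GV (173 ± 21.6, SD, n = 2) through KO GV (121 ± 42.8), WT GVBD (96.9 ± 23.5), KO GVBD (89.1 ± 5.75) and KO MII (9.77 ± 5.80) to WT MII (5.21 ± 2.07). WT GV and KO GV did not overlap (157 and 188 against 91.0 and 152), although they lay close. KO GV overlapped WT GVBD, WT GVBD overlapped KO GVBD, and KO MII overlapped WT MII. The step from the GVBD groups to KO MII was free of overlap.

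Hint3 was of similar standing in counts. The WT libraries gave 990 and 537 counts (GV), 1010 and 828 (GVBD) and 41 and 44 (MII). The KO libraries gave 841 and 1377 counts (GV), 950 and 1134 (GVBD) and 215 and 42 (MII). KO MII replicate 1 alone stood above the other MII libraries, while replicate 2 held as few counts as WT.

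The spike-in scaled means of Hint3 ran from KO GV (407 ± 39.5, SD, n = 2) through KO GVBD (348 ± 54.8), WT GVBD (258 ± 109), WT GV (239 ± 73.0) and KO MII (30.3 ± 32.4) to WT MII (6.67 ± 2.01). Every neighbouring pair in this order overlapped, apart from WT GV (187 and 291) and KO MII (53.3 and 7.45). Whether Hint3 or Hint2 was the more abundant per length depended on the length taken, since their ratio, Hint3 to Hint2, was 0.219 to 1.16 per kilobase of all annotated exons and 0.548 to 2.90 per kilobase of main mRNA.

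Hint1 made up most of the HINT transcripts in every library. Its share of the counts of the 3 genes in WT was 93.8% and 95.4% (GV), 95.0% and 96.3% (GVBD) and 94.1% and 93.2% (MII). The KO shares were 96.1% and 95.1% (GV), 97.2% and 96.2% (GVBD) and 99.1% and 99.4% (MII). These shares compare genes within a library and do not depend on the spike-in or on the number of oocytes.

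Ratios within a library are likewise free of any scaling between libraries. Per Hint2 count, WT libraries held 38.8 and 45.2 (GV), 74.7 and 85.9 (GVBD) and 50.7 and 24.7 (MII) Hint1 counts. KO libraries held 126 and 75.8 (GV), 177 and 117 (GVBD) and 545 and 399 (MII). The KO libraries were higher than the WT libraries of the same stage in every case. The share of other gene pairs that part in this way was not counted. The MII ratios contain the Hint1 values that chose the family.

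Against Hint3 the balance was steadier. Hint1 counts per Hint3 count were 25.1 and 38.0 (GV), 25.3 and 38.0 (GVBD) and 23.5 and 31.4 (MII) in WT libraries. They were 30.3 and 26.4 (GV), 42.7 and 32.1 (GVBD) and 142 and 304 (MII) in KO libraries. The genotypes overlapped at GV and GVBD and parted at MII, where Hint1 values had chosen the family.

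**Figure D2:**
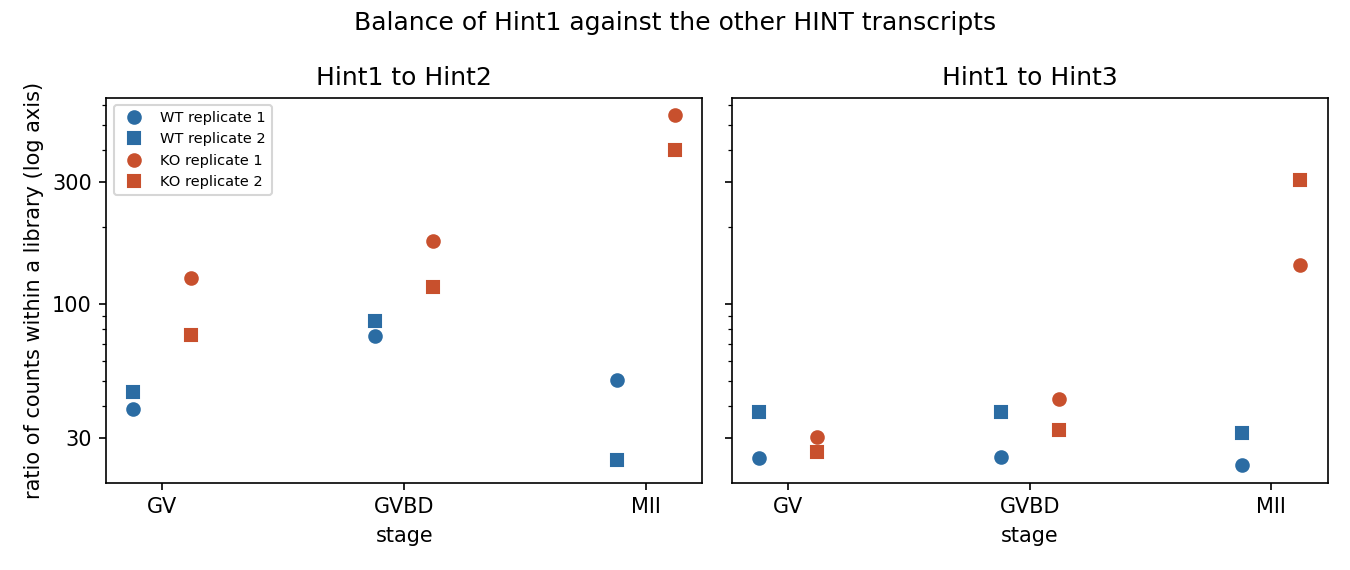
Counts of Hint1 divided by counts of Hint2 (left) and of Hint3 (right) within each of the 12 libraries, on a log axis (x, stage; blue, WT; red, KO; circles and squares, replicates 1 and 2). KO MII libraries reached 545 and 399 per Hint2 count and 142 and 304 per Hint3 count, above all other libraries. MII is the stage whose Hint1 values chose the family.

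The comparison that the study design centres on is KO against WT at each stage. At GV, Hint1 was 1.59-fold higher in KO by the means, with all KO libraries above all WT libraries. The share of all genes whose libraries part in this way, at this or another stage, was not counted. Its log2 fold change was 0.67 ± 0.15 (SE), which did not pass the test (edgeR quasi-likelihood, Benjamini-Hochberg adjusted p = 0.153), and the median of all genes tested was itself 0.36. Hint2 gave −0.51 ± 0.34 (adjusted p = 0.484, edgeR) and Hint3 0.77 ± 0.27 (adjusted p = 0.235, edgeR). None of the 3 members was called at GV, where 0.0977% of all genes tested were, a call being an adjusted p under 0.05 with at least a 2-fold difference. At an unadjusted p under 0.05, 2 of the 3 passed, Hint1 and Hint3, as did 17.9% of all genes. By DESeq2 0 were called, against 3.48% of all genes, since the adjusted p of Hint1 was 0.000131 (0.000131 to 1 over the alternatives other than leaving out a library) at less than a 2-fold difference. With TMM scaling, which moved the median of all genes at GV from 0.36 to 0.02, the values were 0.35 for Hint1, −0.79 for Hint2 and 0.46 for Hint3. Blood markers stood at 13.1 and 4150 CPM in WT GV and at 2260 and 3990 in KO GV, and their part in these values was not tested.

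At GVBD the values were 0.78 ± 0.50 for Hint1, −0.12 ± 0.56 for Hint2 and 0.43 ± 0.53 for Hint3 on the log2 scale. The edgeR adjusted p-values were 0.499, 0.954 and 0.776, and the median of all genes tested was 0.23. Again none of the 3 members was called, against 2.54% of all genes tested, and 0 were at an unadjusted p under 0.05 (14.9% of all genes) or by DESeq2 (4.63%). Both KO libraries lay above both WT libraries for Hint1, whereas Hint2 and Hint3 overlapped between the genotypes on the spike-in scale. Here too the share of all genes without overlap was not counted. The Hint1 value was 0.37 without KO GVBD replicate 1 and 0.47 with TMM scaling. Blood markers stood at 2180 to 2360 CPM in WT GVBD and at 3.84 to 7.31 in KO GVBD, and their part in these values was not tested.

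At MII, the contrast that chose the family, Hint1 was 27.7-fold higher in KO by the means, and the lower KO library was 11.9 times the higher WT library. The fitted log2 fold change was 4.79 ± 0.83, and 91 of the 17566 genes tested had a higher value. Without KO MII replicate 1 it was 3.67, and without replicate 2 it was 5.41. Cumulus and granulosa markers summed to 61.7 to 87.5 CPM in KO MII and 48.6 to 55.7 in WT MII, and their part in this difference was not tested. Blood markers stood at 694 and 1.23 CPM in KO MII replicates 1 and 2 and at 6.84 to 32.6 in WT MII, and their part was not tested either.

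The other 2 members did not pass the test at MII. Hint2 gave a log2 fold change of 0.90 ± 1.21 (adjusted p = 1, edgeR), with 13.9 and 5.67 spike-in scaled counts in KO against 3.75 and 6.68 in WT. The Hint2 value was 0.11 without KO MII replicate 1 and 1.40 without replicate 2. Hint3 gave 2.18 ± 1.07 (adjusted p = 0.622, edgeR), and this value rested on 1 library, since it was 0.16 without KO MII replicate 1 and 3.00 without replicate 2. Neither was called by edgeR or by DESeq2, against 0.803% and 1.97% of all genes tested. At an unadjusted p under 0.05 Hint3 passed, as did 7.32% of all genes, and Hint2 did not. Both overlapped between the genotypes on the spike-in scale, whereas in CPM Hint3 did not (1.36 and 6.06 in KO against 1.10 and 1.12 in WT).

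Over all stages together, with stage as a covariate, Hint1 was higher by 1.89 ± 0.64 on the log2 scale, a value that includes the MII libraries. Hint2 gave 0.06 ± 0.34 (adjusted p = 0.943, edgeR), and Hint3 gave 1.09 ± 0.44 (adjusted p = 0.198, edgeR). Neither Hint2 nor Hint3 was called, against 1.26% of all genes tested. Without KO MII replicates 1 and 2 in turn the values were 1.52 and 1.91 for Hint1, −0.22 and 0.11 for Hint2, and 0.50 and 1.22 for Hint3. With no filter on low counts Hint3 was called, as were 3.57% of genes (adjusted p = 0.0369, against 0.0369 to 0.211 over the alternatives, edgeR and DESeq2), and the value of Hint2 turned to −0.26 with TMM scaling.

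**Figure D3:**
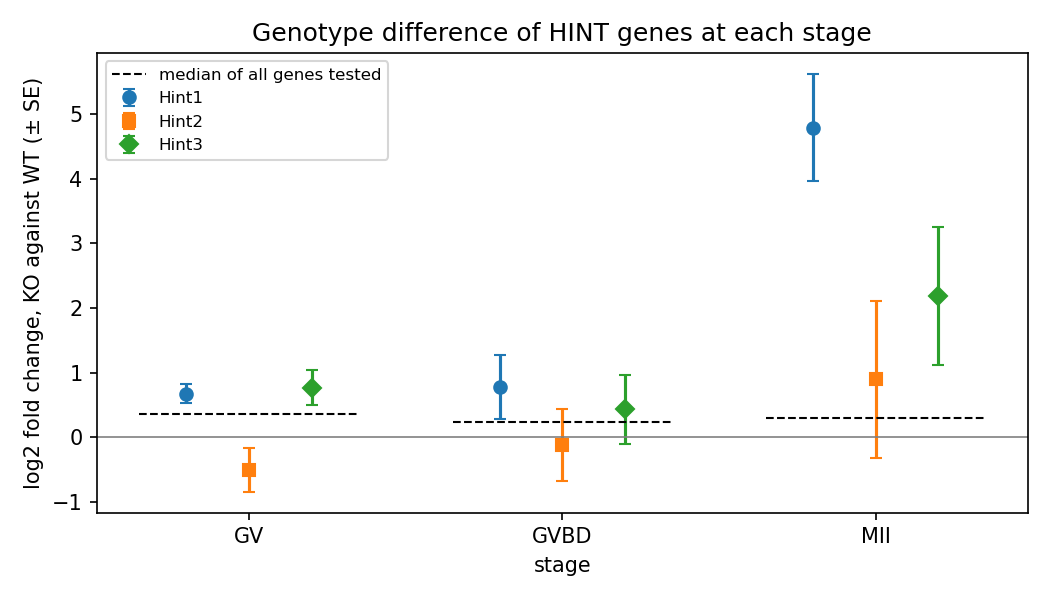
Log2 fold change of KO against WT with its standard error for each HINT gene at GV, GVBD and MII, from spike-in scaled edgeR fits to 4 libraries each; dashed lines mark the median of all genes tested (0.36, 0.23 and 0.30). The value of Hint1 was 0.67 before breakdown, 0.78 at GVBD and 4.79 in the MII libraries, the last being the contrast that chose the family.

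Stages were compared next, to see how far each transcript was lost during maturation. Between GV and GVBD no member passed the test in either genotype, where 0.0511% of genes were called in WT and 0.22% in KO. In WT, Hint1 changed by 0.09 ± 0.32, Hint2 by −0.83 ± 0.43 and Hint3 by 0.11 ± 0.46 on the log2 scale (edgeR adjusted p of 0.976 for Hint2 and 1 for the others). In KO the values were 0.20 ± 0.31, −0.45 ± 0.40 and −0.23 ± 0.29 (edgeR adjusted p of 0.912, 0.822 and 0.889). Hint2 was the one member whose mean stood below GV in both genotypes, at 56.1% of GV in WT and 73.5% in KO, and in WT its GVBD libraries lay below both GV libraries.

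From GV to MII both members open to a test fell in WT. Hint2 fell by 5.03 ± 0.65 on the log2 scale (adjusted p = 7.27e-13, edgeR) and Hint3 fell by 5.17 ± 0.64 (adjusted p = 4.02e-14, edgeR). Both tested members were thus called lower, as were 30.5% of all genes tested, and the median of all genes was −1.06. With TMM scaling, which moved that median to −0.22, both remained called (−4.02 and −4.31), while the split of all calls went from 74 higher and 5747 lower to 1329 and 3193. Hint1 moved by −5.34 ± 0.54, given without a test. What remained at MII, as a share of the GV mean, was 2.46% for Hint1 (2.29% and 2.64% in its 2 libraries), 3.02% for Hint2 (2.17% and 3.87%) and 2.79% for Hint3 (2.20% and 3.39%), so that the members kept similar small shares.

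In KO the shares were less alike. Hint1 kept 42.8% of its GV mean at MII (19.7% and 65.9% in its 2 libraries), a log2 change of −1.23 ± 0.60, beside a median of all genes of −1.17. With TMM scaling, which moved that median to −0.14, the change was −0.30. Without KO MII replicate 1 that change was −2.34, and without replicate 2 it was −0.60. Hint2 kept 8.06% (4.68% and 11.4%) and Hint3 kept 7.46% (1.83% and 13.1%). Their log2 changes of −3.64 ± 0.88 and −3.75 ± 0.96 came close to the threshold but did not pass it (edgeR adjusted p = 0.0511 and 0.0574), against 3.28% of genes called lower. Leaving out either KO MII library put both past the threshold, with values of −4.41 and −3.13 for Hint2 and −5.77 and −2.93 for Hint3 without replicates 1 and 2. DESeq2 also called both, as it did 16.3% of genes on the lower side (adjusted p = 0.000158 and 0.000161), where the alternatives other than leaving out a library ranged from 0.000158 to 0.061 for Hint2 and from 0.000161 to 0.0663 for Hint3.

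**Figure D4:**
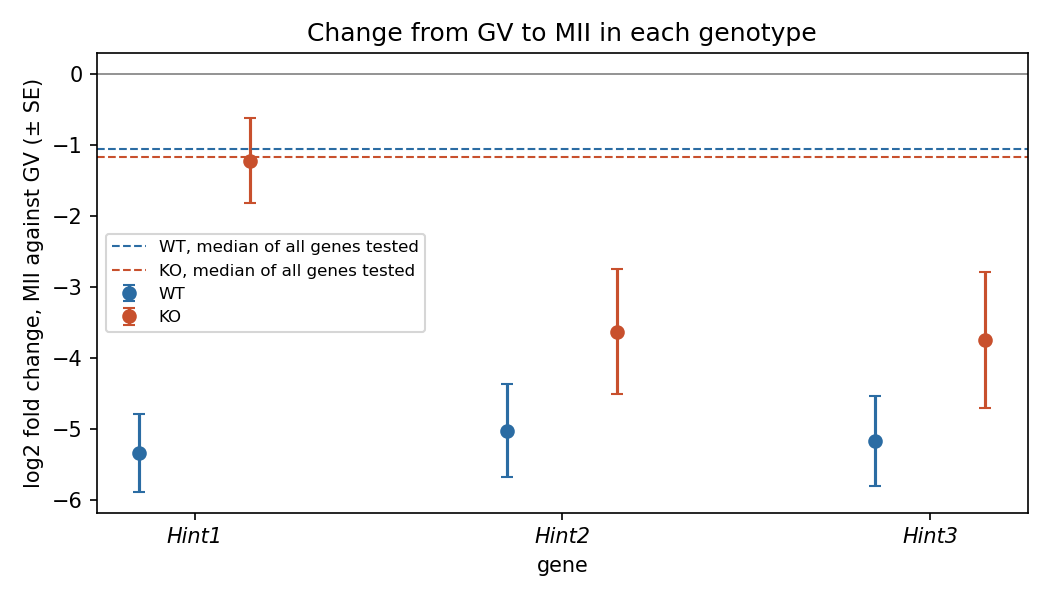
Log2 fold change from GV to MII with its standard error for each HINT gene in WT (blue) and KO (red), from spike-in scaled edgeR fits to 4 libraries each; dashed lines mark the median of all genes tested (−1.06 in WT and −1.17 in KO). All 3 genes lay near −5 in WT, while in KO Hint1 (−1.23) lay near the median and Hint2 (−3.64) and Hint3 (−3.75) well below it.

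The part of the fall between GVBD and MII was similar. In WT, Hint2 fell by 4.20 ± 0.82 (adjusted p = 7.37e-06, edgeR) and Hint3 fell by 5.28 ± 0.84 (adjusted p = 3.07e-08, edgeR), both being called, as were 27.1% of genes on the lower side. In KO, Hint2 fell by 3.19 ± 0.95 (adjusted p = 0.035, edgeR) and Hint3 fell by 3.52 ± 0.92 (adjusted p = 0.0178, edgeR), and both were called, against 7.12% of genes. Those KO calls were lost when KO GVBD replicate 1 was left out (−3.12 and −3.35), KO GVBD replicate 2 (−3.25 and −3.67) or KO MII replicate 2 (−2.68 and −2.71), and also with TMM scaling (−2.38 and −2.91), but not when KO MII replicate 1 was (−3.97 and −5.54). Hint1, given without a test, moved by −5.44 ± 0.73 in WT and by −1.43 ± 0.65 in KO, the latter being −2.54 without KO MII replicate 1 and −0.80 without replicate 2.

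Whether the fall differed between the genotypes was tested as an interaction for the members that the choice of the family left free. For GV to MII, the KO change exceeded the WT change by 1.39 ± 0.91 for Hint2 and 1.42 ± 1.06 for Hint3 on the log2 scale, and neither passed (adjusted p = 1 for both, edgeR). No gene at all was called by edgeR in that test, although 1197 had an unadjusted p under 0.05 and DESeq2 called 150, neither member among them. For GVBD to MII the differences were 1.01 ± 1.04 and 1.75 ± 1.11 (adjusted p = 1 for both, edgeR), with 0.0626% of all genes called. Without KO MII replicate 1 the 2 differences were 0.61 and 0.23 for Hint2 and turned to −0.60 and −0.26 for Hint3, and without replicate 2 they were 1.90 and 1.52 for Hint2 and 2.24 and 2.57 for Hint3. For Hint1 the same terms were 4.12 ± 0.75 and 4.01 ± 0.87, as descriptions. They were 3.00 and 2.89 without KO MII replicate 1, and 4.74 and 4.63 without replicate 2.

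Before MII, no difference between the genotypes in the course of a member passed the test. The difference in the GV to GVBD change was 0.11 ± 0.44 for Hint1, 0.39 ± 0.57 for Hint2 and −0.34 ± 0.55 for Hint3, with edgeR adjusted p-values of 1, 0.987 and 0.991. Of all genes tested 0.00936% were called. That of Hint1 was −0.31 without KO GVBD replicate 1 and 0.43 without replicate 2.

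Genes whose course over the 12 libraries was most like that of each member were named by the Pearson correlation of log2 spike-in scaled counts, as a description over libraries that share their spike-in and depth. For Hint1 these were Chchd2 (r = 0.997), a mitochondrial and nuclear coiled-coil-helix protein, Rpl22l1 (0.989), a ribosomal protein paralogue, Psmb4 (0.988), a proteasome subunit, Ndufb9 (0.988), a subunit of respiratory complex I, and AC138790.4 (0.988). For Chchd2 the log2 change between GV and MII was −5.11 ± 0.57 in WT and −0.94 ± 0.61 in KO. Of the 10826 genes searched, 5.66% had an r above 0.9 with Hint1.

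**Figure D5:**
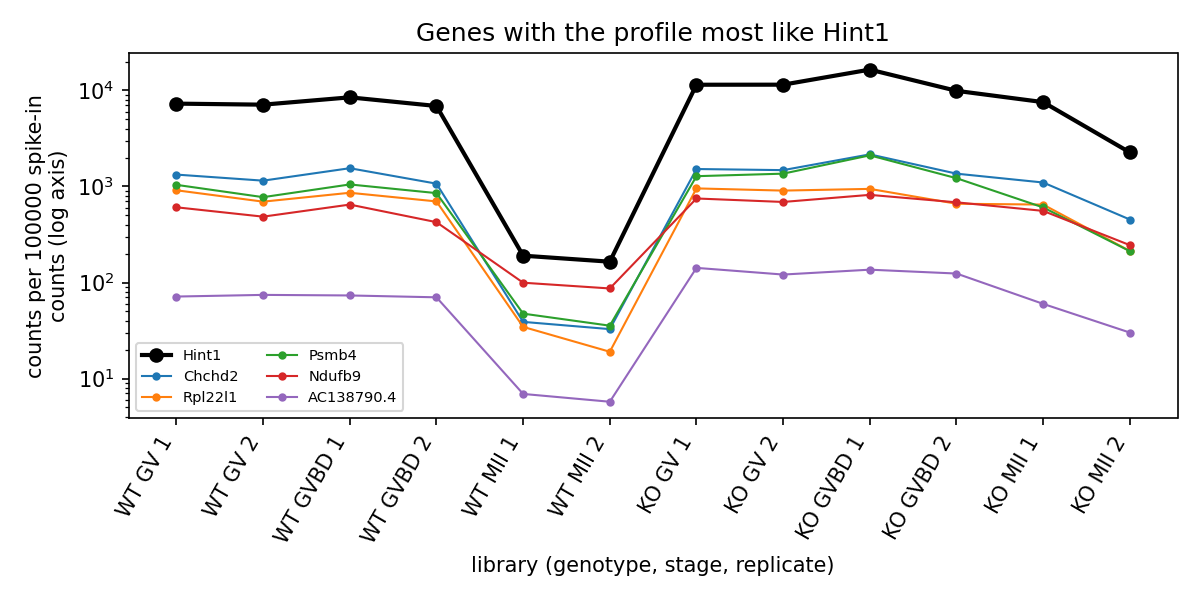
Hint1 (black) and the 5 genes whose course was most like it, in counts per 100000 spike-in counts on a log axis, over the 12 libraries named on the x axis. All are lowest in the 2 WT MII libraries and higher in the 2 KO MII libraries, as their choice by likeness to Hint1 entails.

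The neighbours of the other members were different ones. Those of Hint2 included Rfxank (0.982), a subunit of the RFX factor of MHC class II genes, Aptx (0.982), Cyb5a (0.981), a cytochrome b5, and Rps27a (0.981), a ribosomal protein gene. Those of Hint3 were Ndufa9 (0.996), a complex I subunit, Cd180 (0.995), Cacnb2 (0.995), a calcium channel subunit, Naxe (0.995), which repairs hydrated NADH, and Med7 (0.994), a Mediator subunit. For Rps27a the log2 change between GV and MII was −6.37 ± 0.58 in WT and −4.87 ± 0.69 in KO. Among the members themselves, Hint2 and Hint3 were the most alike (r = 0.953), followed by Hint1 with Hint3 (0.890) and Hint1 with Hint2 (0.814). For Hint2, 10.3% of genes had an r above 0.9. For Hint3, 20.9% of genes did, so a high value there marks a common course. With TMM scaling Cyb5a and Rps27a left the 5 genes most like Hint2, and Med7 left those of Hint3.

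The rest of the histidine triad superfamily gives the wider family setting. The list held Fhit, which cleaves diadenosine triphosphate, Galt, the uridylyltransferase of galactose metabolism, Aptx, which removes AMP from abortive DNA ligation ends, Dcps, the scavenger decapping enzyme, and the splicing-related Cwf19l1 and Cwf19l2. All 6 were tested, and 0 were called by edgeR between the genotypes at GV, GVBD or MII, where 0.0977%, 2.54% and 0.803% of all genes were. Their medians were 0.26 (GV), 0.09 (GVBD) and −0.38 (MII) on the log2 scale against 0.36, 0.23 and 0.30 over all genes. At an unadjusted p under 0.05 the 3 stages held 0, 0 and 2 of them, where they held 17.9%, 14.9% and 7.32% of all genes, and DESeq2 called 1, Galt at MII, where it called 1.97% of genes. At MII the highest was Fhit (2.29 ± 1.05, adjusted p = 0.514, edgeR). The lowest was Galt, with 55 and 33 counts in WT MII and 0 in both KO MII libraries, at least 11.6-fold lower against a floor of 3 counts per library (adjusted p = 0.0603, edgeR), and the list median is the same with Galt at that bound. From GV to MII in WT, 2 of the 6 were called lower by edgeR, as were 30.5% of all genes. They were Fhit (−3.86 ± 0.63, adjusted p = 1.63e-08, edgeR) and Aptx (−3.32 ± 0.51, adjusted p = 2.11e-09, edgeR), and DESeq2 called the same 2. In KO only Galt, at 0 counts, was called lower by edgeR, as were 3.28% of genes. DESeq2 called Galt and Aptx there, as it did 16.3% of genes on the lower side.

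Known partners of HINT1, and Nudt2, a hydrolase of diadenosine tetraphosphate, formed the second list of 9 genes (Kars, Mitf, Usf2, Cdk7, Ruvbl1, Ruvbl2, Rgs17, Ctnnb1 and Nudt2). All were tested, and 0 were called by edgeR between the genotypes at GV, GVBD or MII, where 0.0977%, 2.54% and 0.803% of all genes were. Their medians were 0.48 (GV), 0.57 (GVBD) and 0.22 (MII). At an unadjusted p under 0.05 the 3 stages held 5, 2 and 1 of them, beside the same 17.9%, 14.9% and 7.32% of all genes, and DESeq2 called 1, Ruvbl1 at GVBD, where it called 4.63%. Ruvbl1, an AAA ATPase that forms a complex with Ruvbl2, was called higher in KO over all stages (1.41 ± 0.24, adjusted p = 0.0142, edgeR), the 1 call among the 9, where 1.26% of all genes were called. Its spike-in scaled counts in WT were 464 ± 66.6 (GV), 189 ± 43.2 (GVBD) and 259 ± 53.0 (MII), and in KO they were 829 ± 119, 638 ± 77.0 and 805 ± 147 (mean ± SD, n = 2). At MII it was also the highest of the list (1.64 ± 0.82, adjusted p = 0.661, edgeR), and Ruvbl2 was the lowest (−0.63 ± 0.81, adjusted p = 1, edgeR). From GV to MII in WT, 2 of the 9 were called lower by edgeR, as were 30.5% of all genes. They were Cdk7 (−1.77 ± 0.48, adjusted p = 0.00146, edgeR) and Nudt2 (−1.76 ± 0.49, adjusted p = 0.00193, edgeR). DESeq2 called 3, these and Kars, where it called 5482 of 18816 genes lower. In KO 0 were called by edgeR, against 3.28% of genes called lower (3 at an unadjusted p under 0.05, as were 24.6% of all genes, and 0 by DESeq2).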

How the data were processed

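The deposited values were counts, whole numbers of reads per gene, which the authors obtained with Cutadapt, Hisat2 on mm10 (GRCm38) with the ERCC sequences, SAMtools for uniquely mapped reads and StringTie; the submitters' processing notes give cutadapt 1.9, HISAT2 2.0.4 and StringTie 1.3.4d. The annotation release, the use of strand and the counting step are not given in the sources used here. The methods describe poly(A) SMART-seq of pooled oocytes without molecular identifiers, while the sample descriptions describe a bulk dUTP preparation, so the protocol is not settled, and the number of oocytes per tube is given as different values. Counts are thus not independent molecules.

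Libraries were grouped by the labelled genotype and stage. The study calls the 2 samples of a group biologically independent, and nothing in the labels ties them to separate animals, so p-values measure the spread between these samples. Counts were fitted with edgeR 4.0.16 (R 4.3.3; glmQLFit, glmQLFTest, two-sided, only the groups compared), with library sizes in proportion to summed ERCC counts, filterByExpr, and Benjamini-Hochberg adjustment over all genes tested, in 13 comparisons. Calls needed an adjusted p under 0.05 and an absolute log2 fold change of at least 1. The SE is the log2 fold change over the square root of F. The step was tested on simulated data. Symbols matched 52073 of 56691 identifiers (91.9%); positions, lengths and sequences are from GENCODE M21 on GRCm38. Near copies were sought with blastn 2.17.0.

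The genes named are the members, Alkbh5, list genes called in KO against WT or highest or lowest at MII, and for each member the 5 symbols most correlated over 12 libraries (pseudocount 1, mean of at least 50 counts); list genes called between stages were named after their values were seen. One gene that this rule names is not reported here. The members and lists were chosen with earlier results of these data known. Alternatives tried were DESeq2 1.42.0, scaling by TMM, by median of ratios or by the 46 ERCC sequences that never fell under 10 counts, other filters on low counts, a fit to all 12 libraries, a replicate block, and each library left out. The filter at spike-in library sizes and the crossed replicate numbers were added after the data had been seen.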

Additional observations from a re-analysis of the deposited data

How the results depend on the processing

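Apart from leaving out a library, 335 of 366 recomputed values (48 results, each under several alternatives) kept their direction and their side of the threshold, or moved by less than the replicate SD. For Hint1 that SD was the square root of the summed group variances, which is wide where KO MII enters. Its change from GV to MII in KO, −1.23 and up to −0.30 under other scaling, thus counted among the 335. The 335 also hold alternatives that barely move a fold change, such as filters on low counts. With TMM and median-of-ratios scaling Hint1 moved to −4.44 and −4.32 (MII against GV in WT) and to −4.47 and −4.41 (MII against GVBD in WT), Hint2 over all stages turned to −0.26 and −0.28, and from GVBD to MII in KO Hint2 (−2.38 and −2.35) and Hint3 (−2.91 and −2.89) were no longer called; these scalings centre on the endogenous genes. From GV to MII in KO, Hint2 was called with no filter (−3.64), with at least 10 counts in every library (−3.64), by DESeq2 (−3.64) and with all 12 libraries in one model (−3.64), and so was Hint3 (−3.75 in each); the cause was not tested. Hint3 over all stages was called with no filter (1.09). Per kilobase, Hint1 took 98.2%, 98.8% and 97.8% of the HINT total in WT GV, GVBD and MII, and 98.9%, 99.2% and 99.8% in KO. With TMM scaling 3 of the 5 genes most like Hint1 and 2 of the 5 most like Hint2 were shared.

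Same-numbered libraries share only a number in their titles (correlation of their deviations −0.221 to 0.199 across 13273 genes). The replicate block changed the call of 2 results, Hint2 (−3.71) and Hint3 (−4.31) from GV to MII in KO, both then called, and it moved the calls among all genes from 141 to 4 for KO against WT at MII and from 616 to 2462 for MII against GV in KO. With the numbers crossed, chosen after seeing the data, the calls were 218 for KO against WT at GV (0 with the block as numbered, 3009 at an unadjusted p under 0.05 by edgeR), 0 at MII (4 as numbered; 278 at an unadjusted p under 0.05 by edgeR when crossed) and 204 for MII against GVBD in KO (2443 as numbered), where Hint2 (−3.32) and Hint3 (−4.09) were not among them.

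Leaving out each library, one arm then resting on 1 library assumed to vary like the others, gave ranges of −0.064 to 0.24 and −0.21 to 0.52 for Hint1 from GV to GVBD in WT and KO, −0.31 to 0.43 for its genotype difference there, −0.35 to 0.15 for Hint2 between genotypes at GVBD, −0.22 to 0.22 over all stages, −0.40 to 0.49 for Hint3 from GV to GVBD in WT, and −0.60 to 2.24, −0.26 to 2.57 and −0.71 to 0.17 for its genotype differences from GV to MII, GVBD to MII and GV to GVBD. In KO the ranges were −4.41 to −3.13 (Hint2) and −5.77 to −2.93 (Hint3) from GV to MII, and −3.97 to −2.68 and −5.54 to −2.71 from GVBD to MII.

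Counts of calls among all genes depended on the tool and scaling. Calls numbered 19, 494 and 141 for KO against WT at GV, GVBD and MII by edgeR and 676, 901 and 346 by DESeq2, and 616 and 3068 for MII against GV in KO. TMM scaling took the split of higher and lower calls from 11 and 8 to 8 and 11 at GV, from 157 and 337 to 4 and 28 at GVBD, from 1 and 615 to 217 and 689 for MII against GV in KO, and from 131 and 5208 to 1852 and 2995 for MII against GVBD in WT. Hint2 and Hint3 held 19 to 56 and 41 to 44 counts in WT MII, which limits the precision of their values there.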
